A study of Mus musculus with 7 samples.

Results

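Cystatins are small secreted proteins, most of which bind and block cysteine proteases of the cathepsin family. The 4 cystatin genes described here, Cst3, Cst8, Cst9 and Cst12, were chosen by name from the 31053 genes of the count tables because earlier results of these data placed them in pregranulosa cells, the supporting cells of the fetal ovary that later surround the oocytes of the follicles. Cst3 encodes cystatin C, a broadly expressed inhibitor of cathepsins. Cst8 (also called Cres), Cst12 (CRES3) and Cst9 (testatin) belong to a branch of the family that is best known from the reproductive tract and, for testatin, from the supporting cells of the early testis. Members of the CRES branch lack parts of the sequence with which other cystatins block cathepsins.

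Single-cell RNA was measured in 7 droplet libraries of C57BL/6J mice, with no allele or treatment given in the labels. There was 1 library of E11.5 gonad and 6 of ovary, 4 of them embryonic (E12.5, E14.5 and then E16.5 and E18.5) and 2 postnatal (days P1 and P5), every library a pool of several animals. The values are counts of unique molecular identifiers (UMIs), which count molecules at the 3′ end and do not scale with gene length. After removal of cells with fewer than 200 genes, 50823 of 52542 cells remained, with 492138529 UMIs and a median of 6349 to 11060 UMIs per cell in the 7 libraries. With 1 library per age, age and library cannot be told apart, and the trypsin treatment also lengthened with age from 20 to 80 min. No test between ages was possible.

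Pregranulosa cells were taken as cells with at least 3 UMIs of Wnt6 and Kitl together and without the gates of germ, immune, endothelial or red blood cells, of Pax8 or, at E12.5, of Amh. This gave 14660 cells, of which 7568 had at most 1 UMI of Gng13 (Gng13-low) and 6208 at least 3 (Gng13-high). In the 6 ovary libraries the Gng13-low cells had the higher level of Foxl2 and the Gng13-high cells the higher level of Lgr5, neither of which the gates used. Foxl2 was at 388 and 93.3 CPM, and Lgr5 at 3.62 and 219, in the Gng13-low and Gng13-high cells of P5, where CPM is a gene's summed UMIs in a class scaled to a class total of 1000000. Of the 308 Gng13-high cells of P5, 140 also held at least 3 UMIs of the epithelial marker Upk3b, and 205 held a UMI of Upk3b or Krt19. The Gng13-high class of P5 thus mixed cells with and without epithelial markers. The same held at earlier ages, with a UMI of Upk3b or Krt19 in 58 of 453 cells at E12.5 and 417 of 2637 at E14.5. It was found in 863 of 1622 at E16.5, 341 of 731 at E18.5 and 193 of 440 at P1. The values of the Gng13-high class cannot be read as those of pregranulosa cells alone. Other classes were stroma (at least 3 UMIs of Nr2f2 and Col1a1 together, 14354 cells), Upk3b-positive epithelium outside the pregranulosa gate (971 cells), immune cells (892 cells), red blood cells (2844 cells) and, at E12.5, cells with at least 3 UMIs of Amh (100 cells). The classes rest on these gates and not on clusters or a sort.

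The E12.5 library did not match a plain reading of its label, and the E11.5 and E16.5 libraries had traits that also bear on what follows. The E12.5 library is labelled ovary, but 84 of its 100 Amh cells held a UMI of a Y-linked gene (Ddx3y, Uty, Eif2s3y or Kdm5d), Sox9 stood at 399 CPM in them against 31.2 in the Xist-positive pregranulosa cells, and the 3 Sertoli cell markers checked summed to 2112 against 73.3. A further 48 of its 1451 pregranulosa cells held a Y-linked UMI. The E11.5 library held both sexes, with a Y-linked UMI in 123 of 321 pregranulosa cells. The E16.5 library shared 0 to 3 cell barcodes with any other library, whereas every other pair shared 22 to 136, and its part in the levels was not tested.

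All 4 genes lie in a cystatin cluster on chromosome 2 (GRCm38, GENCODE vM21), within 86332 bases from the start of Cst12 to the end of Cst3. Cst12 (ENSMUSG00000027443) is at chr2:148789361-148793546, Cst8 (ENSMUSG00000027442) at chr2:148798785-148805595 and Cst9 (ENSMUSG00000027445) at chr2:148835147-148838738, all on the plus strand, and Cst3 (ENSMUSG00000027447) is at chr2:148871722-148875692 on the minus strand. Cst12 and Cst8 are neighbours, 5238 bases apart. All 4 are protein-coding genes, and in each pair of members the longest exact run of bases that their annotated transcripts share was 9 to 13, so that reads of one member had no long identical stretch in another.

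The sequences before the starts of the 3 genes that stood far above stroma are shown (RefSeq promoter windows, GRCm38.p6, plus strand, printed up to the base before the first transcribed base in either annotation). They were picked because Cst12 and Cst8 were both higher in Gng13-high than in Gng13-low cells in all 6 ovary libraries below, while Cst9 was not. A last line gives the stretch around the only motif found, chr2:148798781-148798809, which lies just inside the longer GENCODE transcript of Cst8. Capitals mark the motif.
Cst12, chr2:148789115-148789360: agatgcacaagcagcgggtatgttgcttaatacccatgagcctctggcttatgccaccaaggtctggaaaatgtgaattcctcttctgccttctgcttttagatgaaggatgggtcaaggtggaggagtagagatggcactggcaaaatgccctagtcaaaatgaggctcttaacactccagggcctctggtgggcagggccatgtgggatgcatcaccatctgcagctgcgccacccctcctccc
Cst8, chr2:148798589-148798784: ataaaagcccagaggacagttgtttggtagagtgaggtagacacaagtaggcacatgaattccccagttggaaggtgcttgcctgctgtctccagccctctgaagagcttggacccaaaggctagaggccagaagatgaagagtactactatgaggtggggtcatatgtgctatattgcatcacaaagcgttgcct
Cst9, chr2:148834897-148835146: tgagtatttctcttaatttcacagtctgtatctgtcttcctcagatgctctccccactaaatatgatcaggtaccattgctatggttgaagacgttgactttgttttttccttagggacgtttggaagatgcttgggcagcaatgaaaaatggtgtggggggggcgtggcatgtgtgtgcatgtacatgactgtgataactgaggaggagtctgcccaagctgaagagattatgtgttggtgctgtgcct
Cst8 motif: gcctgggcttcAAGGTCAggacttacata

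The windows of 300 bases around the 4 RefSeq starts were searched on both strands for 5 motifs. The first was AAGGTCA, a site that nuclear receptors such as NR5A1, a regulator of gonadal somatic cells, can bind as single proteins. It was in the Cst8 window and in 4.72% of all 32851 promoter windows. The forkhead motif GTAAACA was in none of the 4 windows and in 3.65% of all. The SOX motif, searched as AACAAT, was in none of the 4 and in 10.7% of all. The zinc finger motif AGATAA was likewise in none of the 4, and 11.2% of all windows held it. The core promoter motif TATAAA was also in none of the 4, against 13.6% of all windows. The Cst3 window held 13 CpG and the windows of Cst12, Cst9 and Cst8 held 3, 3 and 1, against a median of 7 over all windows.

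The first question was where each cystatin was expressed. Levels are given in CPM, each with an exact Poisson 95% interval in brackets that covers counting error only and not the spread between animals. Cst3 was found at 19.5 CPM or more in every class with at least 50 cells. In stromal, germ, endothelial, immune and red blood cells, Cst8, Cst9 and Cst12 reached at most 9.24, 2.01 and 11.8 CPM in classes of that size. In the smaller class of 34 immune cells at E14.5, Cst8 and Cst12 were each at 15.4, from 3 UMIs. Outside the pregranulosa and Amh classes the 3 genes were also found in part of the epithelium, in Pax8 cells and in cells left in no class, with values given below.

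**Figure D1:**
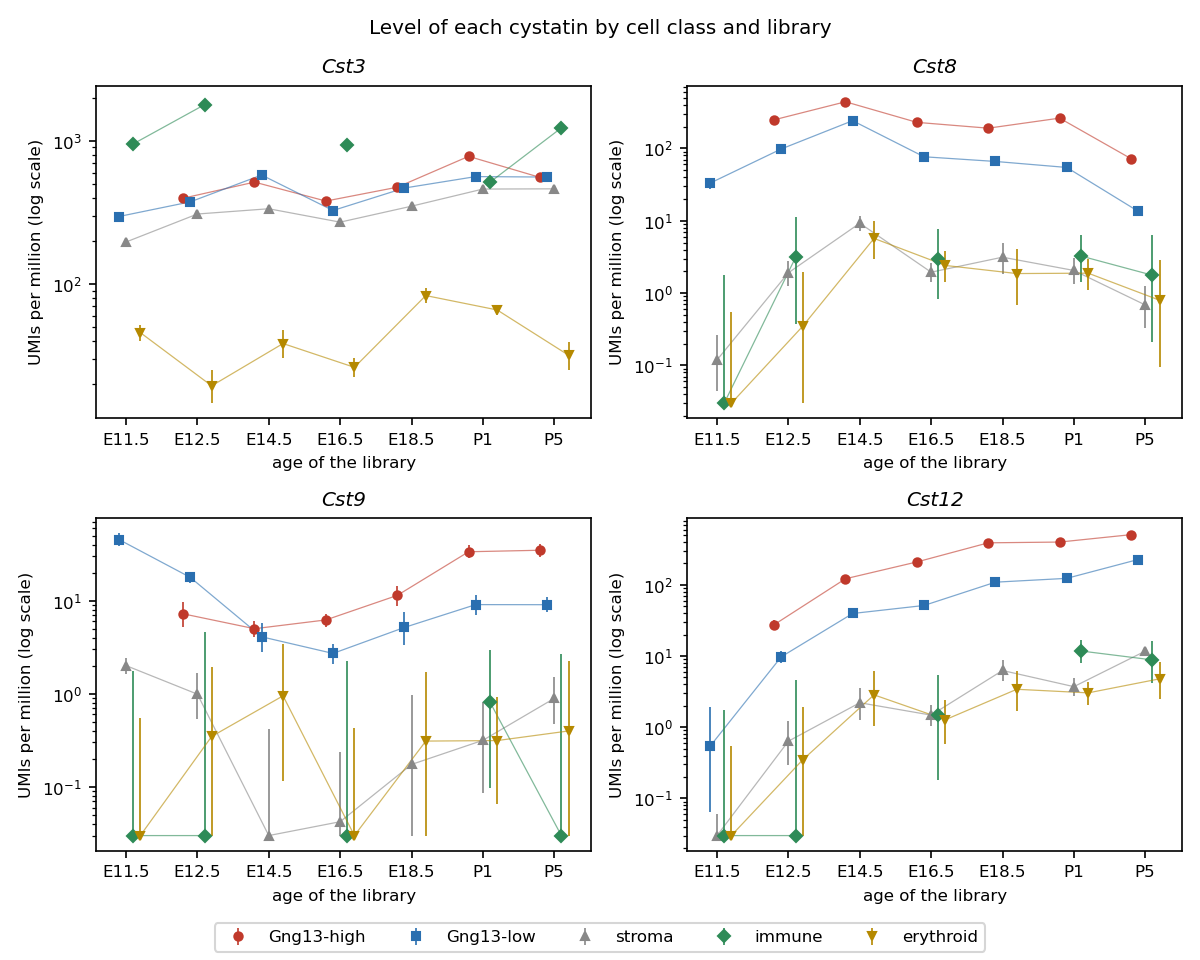
Level of each cystatin (CPM, log scale) in 5 cell classes by library, with exact Poisson 95% intervals; classes with fewer than 50 cells in a library are left out, a level of 0 is drawn at 0.03, and lines join the points of a class. Cst8 and Cst12 lie higher in Gng13-high than in Gng13-low cells in all 6 ovary libraries, Cst3 is highest in immune cells in 4 of the 5 libraries that show them, and the Cst9 level of the Gng13-low cells is lowest at E16.5.

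Cst3, cystatin C, was found in every class. In Gng13-low pregranulosa cells it stood at 297 [279–315], 375 [364–387], 578 [561–595], 327 [320–334], 469 [450–488], 564 [546–581] and 559 [546–572] CPM from E11.5 to P5. Stroma followed at 197, 309, 336, 271, 350, 461 and 463. The Gng13-low cells lay above stroma in every library, by 1.21 to 1.72 times, with each interval of the ratio above 1. Such an interval above 1 in all 7 libraries was found for 9.81% of the genes with at least 50 UMIs in each comparison, and for Cst3 and Cst8. Cst9 at E14.5 and E18.5 and Cst12 at E11.5 had fewer UMIs than that, and in the other libraries (5 for Cst9 and 6 for Cst12) their intervals also lay above 1. Stroma belongs to the rule by which the members were chosen, so these ratios are descriptions.

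The label of a pregranulosa cystatin did not hold for Cst3. Immune cells had more than pregranulosa cells in 4 of the 5 libraries with at least 50 of them, at 953 [907–1000] at E11.5, 1791 [1689–1897] at E12.5, 937 [885–990] at E16.5 and 1234 [1171–1301] at P5. At P1 they had less, 515 [487–544] against 652 [638–666]. Germ cells held 159 to 472 in the 6 libraries with at least 50 of them, and red blood cells 19.5 to 83.2.

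Cst8 was high in pregranulosa cells from E12.5 to P1 and highest at E14.5. In all pregranulosa cells its level was 37.7 [32.0–44.2], 157 [151–162], 380 [373–387], 153 [149–156], 131 [125–138], 137 [130–143] and 29.0 [26.5–31.6] CPM in the order of age. The intervals of E12.5 and E16.5, and those of E18.5 and P1, overlapped, and all other neighbours in the order of levels were apart by more than their intervals. In stroma it was 0.119 to 9.24, and the ratio of Gng13-low cells to stroma ran from 19.7 at P5 to 277 at E11.5.

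Background RNA was read from cells that should lack the gene. With every cell thinned to 2000 UMIs, 57.8% of the Gng13-high and 34.6% of the Gng13-low cells of E14.5 held a Cst8 UMI, against 2.05% of red blood cells and 2.03% of stromal cells, at median depths before thinning of 6774, 5638, 8072 and 5282 UMIs. Before thinning the shares were 90.6%, 60.2%, 4.40% and 4.81%. At E11.5, 8.11% of the Gng13-low cells held one and 0 of 248 red blood cells, which allows a share of up to 1.21%. Thinning left out 31 Gng13-low, 9 Gng13-high, 6 red blood and 37 stromal cells of E14.5.

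Cst12 began last. At E11.5 only 2 UMIs were found in 321 pregranulosa cells and none in 4230 stromal cells, too few to compare. The level in all pregranulosa cells was then 16.1 [14.3–18.0], 96.3 [92.8–99.9], 131 [128–134], 252 [244–262], 238 [229–246] and 306 [298–314] CPM in the 6 ovary libraries in the order of age. The P1 value was the only one not above the age before it, and its interval overlapped that of E18.5. Stroma held 0.636 to 11.7 in those 6 libraries, and the Gng13-low cells stood 15.3 to 34.7 times above it.

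The neighbouring genes Cst8 and Cst12 thus took opposite courses between E14.5 and P5, with Cst8 lower at P5 and Cst12 higher. The ends differ by more than counting error, and each end is 1 library.

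Cst9 was low in pregranulosa cells at all ages of the ovary. Its level was 46.4 [40.0–53.5] in the E11.5 gonad and, in the order of age, 13.9 [12.2–15.7], 4.81 [4.05–5.67], 4.54 [3.99–5.15], 8.38 [6.82–10.2], 18.3 [16.1–20.9] and 16.6 [14.8–18.6] CPM in the ovary. The lowest, those of E14.5 and E16.5, overlapped in their intervals, and so did P1 and P5. The values of E11.5 and E12.5 pool cells with and without Y-linked UMIs. Among cells with Xist and no Y-linked UMI, Cst9 was 13.2 [8.90–18.8] at E11.5 and 8.83 [7.51–10.3] at E12.5, with overlapping intervals. Stroma was at 0 to 2.01, with no UMI in 1269 stromal cells at E14.5. The Gng13-low level there was 9.88 times the stromal limit of 3 UMIs over the class, without the counting error of the Gng13-low cells.

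After thinning, 0.961% of pregranulosa cells at E14.5 held a Cst9 UMI against 0 of 1232 stromal and 0 of 244 red blood cells, which allow up to 0.244% and 1.23%. The red blood cells thus set no limit below the pregranulosa share at that age, and the stromal cells did. In the epithelium class Cst9 stood at 0 to 3.45 in the 4 libraries with at least 50 such cells. In the 11, 33 and 34 epithelial cells of E18.5, P1 and P5 it was 0, 5.19 [0.629–18.8] and 18.2 [6.69–39.7], the last from 6 UMIs.

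Upk3b-positive epithelium outside the pregranulosa gate had little Cst8 and Cst12 in 3 of the 4 libraries with at least 50 such cells. From E11.5 to E16.5 Cst8 was 0.182, 3.12, 43.8 and 3.15 CPM, and Cst12 was 0, 0.260, 38.0 and 3.94. E14.5 stood out in both, with Cst12 at 38.0 [27.2–51.8] in the 127 epithelial cells, which overlapped the Gng13-low cells of that library (39.6). At E18.5, P1 and P5 the class held 11, 33 and 34 cells, under the 50 asked of a class, and Cst12 was 288 [188–423], 166 [128–212] and 383 [319–456] in them. Those values are above the Gng13-low cells (109, 124 and 227) of the same libraries. At P1 the interval of the epithelium overlapped that of the Gng13-low cells, 116 to 132, and only 8 of the 33 epithelial cells held a Cst12 UMI. Cst8 in these small classes was 110.9 [53.20–204.0], 12.98 [4.213–30.28] and 57.70 [34.74–90.11], against 65.97, 54.50 and 13.52 in the Gng13-low cells. The Cst8 interval of the epithelium overlapped that of the Gng13-low cells at E18.5, lay below it at P1 and above it at P5. In cells with the Wnt6 and Kitl gate and at least 2 UMIs of Pax8, a marker of the rete, Cst8 was at 27.7 and 60.5 and Cst12 at 7.54 and 71.1 at E12.5 and E16.5, the 2 libraries with at least 50 such cells. At E16.5 the Cst12 interval, 60.8 to 82.7, lay above that of the Gng13-low cells (51.4 [48.6–54.3]). In cells left in no class, which include cells with conflicting gates, Cst8 was 117 at E14.5 and Cst12 was 193 at P5.

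The second question was whether the cystatins differ between the Gng13-low and Gng13-high pregranulosa cells. The Gng13 split belongs to the rule by which the genes were chosen, and so do the stromal, epithelial, immune and E12.5 Amh classes. Ratios between these classes thus describe the pattern and are not evidence for it. Cst8 and Cst12 were higher in Gng13-high cells in 6 of 6 ovary libraries, with every interval above 1, as for 2.2% of the 9761 genes that could be compared in all 6. Only Cst12 was at least 2-fold higher in all 6, which held for 0.113% of those genes, or 11 of them.

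**Figure D2:**
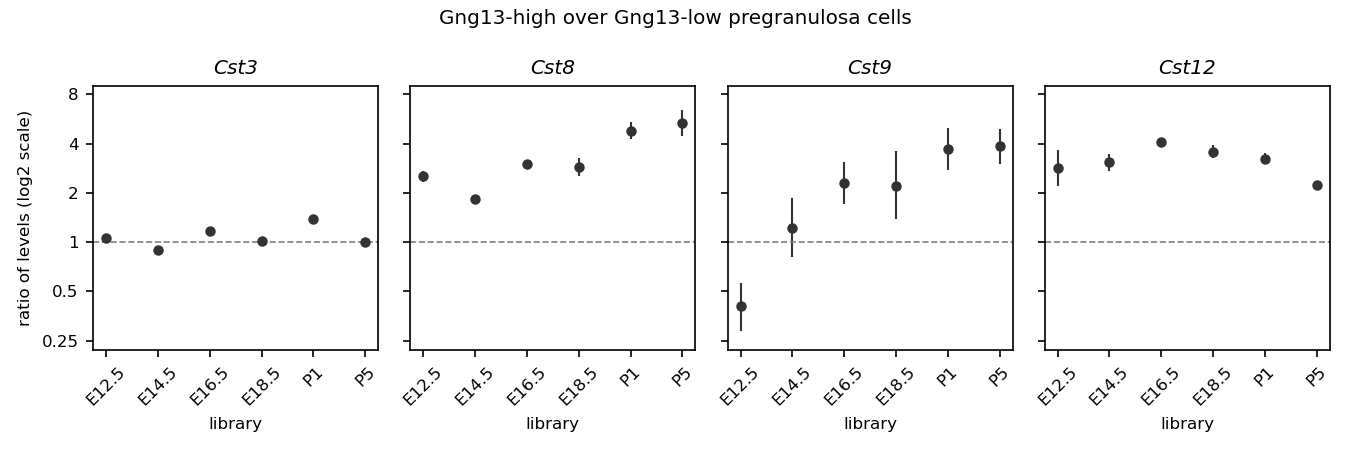
Ratio of the level in Gng13-high to that in Gng13-low pregranulosa cells (log2 scale) for each cystatin in the 6 ovary libraries, with exact 95% intervals conditional on the summed count; the dashed line marks 1. The points of Cst8 and Cst12 lie above the line in all 6 libraries, those of Cst3 close to it, and those of Cst9 go from below it at E12.5 to 3.84 at P5.

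For Cst8 the Gng13-low cells held 98.2, 241, 76.6, 66.0, 54.5 and 13.5 CPM from E12.5 to P5, and the Gng13-high cells 248, 441, 229, 190, 262 and 72.2. The ratios were 2.53 [2.34–2.74], 1.83 [1.74–1.92], 2.99 [2.84–3.15], 2.88 [2.55–3.27], 4.80 [4.28–5.40] and 5.34 [4.42–6.46]. The gap was thus narrowest at E14.5, when Cst8 was highest in both classes, and widest at P1 and P5, whose intervals overlapped. With cells split by Lgr5 and Foxl2 in place of Gng13, as described below, P1 stood at 2.78 [2.45–3.15] and no longer above E18.5, at 3.04 [2.65–3.502].

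For Cst12 the Gng13-low cells held 9.76, 39.6, 51.4, 109, 124 and 227, and the Gng13-high cells 27.6, 122, 210, 390, 400 and 508. The ratios were 2.83 [2.21–3.63], 3.08 [2.74–3.47], 4.09 [3.85–4.35], 3.58 [3.26–3.93], 3.24 [2.99–3.51] and 2.23 [2.11–2.36]. Unlike Cst8, Cst12 had its lowest ratio at P5, although the level was then highest in both classes. The P5 interval overlapped that of E12.5. Without cells that held an Upk3b or Krt19 UMI, the lowest ratio was that of E12.5, with 27.0 against 10.5 CPM. At P5 the levels were then 645 against 229. By Lgr5 and Foxl2, as described below, the lowest was also E12.5, 1.18 [0.791–1.74], and P5 stood at 2.025 [1.891–2.167].

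Cst9 changed direction. At E12.5 the Gng13-low cells had more, 17.8 against 7.21, with a ratio of 0.406 [0.287–0.564]. The shares of cells with a Cst9 UMI were close, 7.93% and 7.73%, and 4 of the 870 Gng13-low cells carried 44.6% of the UMIs of that class. Of these 4 cells 3 had a Y-linked UMI. When only Gng13-low cells with an Xist UMI and no Y-linked UMI were used, their level was 8.99. The ratio was then 0.803 [0.549–1.16] and no longer apart from 1. The filter was set on the Gng13-low side only, and the Gng13-high class kept its 6 cells with a Y-linked UMI. At E14.5 the ratio was 1.22 [0.816–1.87].

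From E16.5 on Cst9 was higher in Gng13-high cells, with ratios of 2.29 [1.71–3.09], 2.21 [1.39–3.61], 3.69 [2.75–5.01] and 3.84 [3.001–4.93] up to P5. The levels behind the last 2 were 33.5 against 9.06 and 34.7 against 9.04 CPM. The interval was thus above 1 in 4 of 6 libraries. Over all genes compared, the share with an interval above 1 was 8.3, 15, 22.7, 15.3, 20 and 21.3% from E12.5 to P5, and the share with one below 1 at E12.5 was 25.3%.

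Cst3 differed little between the classes. Its ratios were 1.06 [1.01–1.11], 0.893 [0.862–0.924], 1.16 [1.13–1.20], 1.01 [0.959–1.07], 1.38 [1.32–1.45] and 0.995 [0.9499–1.04] from E12.5 to P5. The largest gap was at P1, with 780 in the Gng13-high and 564 in the Gng13-low cells. The interval lay above 1 in 3 libraries and below 1 in 1, E14.5, as for 26.7% of the genes compared there.

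Within the gate, levels were also read by the number of Gng13 UMIs. At E16.5, cells with 0, 1, 2, 3 to 5, 6 to 10 and over 10 UMIs of Gng13 held Cst12 at 45.3, 72.3, 116, 148, 187 and 244 and Cst8 at 66.2, 112, 142, 173, 206 and 260 CPM, so that cells just inside and just outside the limits of 1 and 3 UMIs lay between the lowest and the highest bins. Cst8 was higher at every step in 5 of 6 libraries, all but P1, and Cst12 in 2 of 6, E14.5 and E16.5.

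In the other libraries Cst12 did not follow Gng13 step by step. At E18.5 it was level at 109, 109 and 115 in cells with 0, 1 and 2 UMIs and stood at 271, 312 and 456 in the next 3 bins. At P1 the upper 3 bins held 447, 337 and 427. At P5 Cst12 went from 205 with no Gng13 UMI to 666 with 6 to 10 and 479 with over 10.

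Epithelial markers were higher in the Gng13-high class from E14.5 on. All 4 markers checked (Krt19, Krt7, Lrrn4 and Msln) were detected in it, and their summed level was 43.8, 93.2, 274, 323, 538 and 1206 CPM from E12.5 to P5, against 24.1 to 78.9 in the Gng13-low cells. At P5, 45.5% of the Gng13-high cells also passed the Upk3b gate. At E12.5 the order was the other way, with 9.54% of the Gng13-low and 3.09% of the Gng13-high cells passing it. With every cell that held an Upk3b or Krt19 UMI left out, Cst8 was still 1.96 to 7.20 times and Cst12 2.56 to 4.62 times higher in the Gng13-high cells, each in 6 of 6 libraries. The Cst9 ratio without those cells was 7.90 [5.68–10.9] at P5, where 103 Gng13-high cells remained.

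A split of the same gate by other genes gave a partly different picture. Cells with Lgr5 and no Foxl2 UMI were set against cells with Foxl2 and no Lgr5 UMI. At E12.5 the ratio of Cst8 was then 0.874 [0.778–0.981] and that of Cst9 2.10 [1.45–3.06], both opposite to the Gng13 split. Cst12 had 1.18 [0.791–1.74]. From E14.5 on Cst8 and Cst12 stayed higher in the Lgr5 cells, by 1.48 to 5.29 and 2.02 to 3.801 times. The Cst8 ratio at P1 went from 4.80 to 2.78, and that of Cst9 from 2.29 to 1.43 [1.01–2.01] at E16.5 and from 3.84 to 2.48 [1.75–3.47] at P5.

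The third comparison was by Y-linked RNA and Amh, at E11.5 and E12.5, whose libraries held the most pregranulosa-gate cells with a Y-linked UMI. Anti-Müllerian hormone, encoded by Amh, is made by Sertoli cells of the fetal testis and later by granulosa cells of growing follicles. The 100 Amh cells of E12.5 had the highest Cst9 of all classes, 1097 [1047–1149] CPM, against 8.83 [7.51–10.3] in the 1367 Xist-positive pregranulosa cells of the same library, a ratio of 124 [106–147]. Of the Amh cells 16 held no Y-linked UMI, and 18.0% held an Xist UMI. They also differed from pregranulosa cells in Sertoli cell markers, so sex and cell type cannot be told apart in this ratio.

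**Figure D3:**
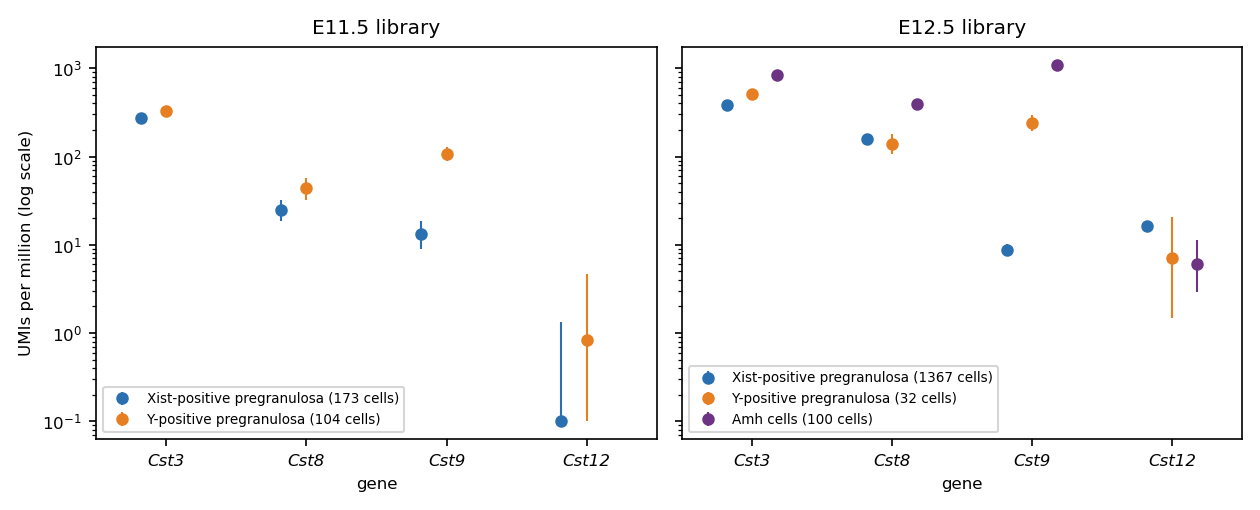
Level of each cystatin (CPM, log scale) in the E11.5 and E12.5 libraries, in pregranulosa-gate cells with Xist and no Y-linked UMI, in those with a Y-linked UMI and no Xist, and at E12.5 in the Amh cells, with exact Poisson 95% intervals and a level of 0 drawn at 0.1. Cst9 runs from 8.83 in Xist-positive cells to 1097 in Amh cells at E12.5, and at that age Cst12 is lowest in the Amh cells, with overlapping intervals against the Y-positive cells.

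Of the 100 Amh cells 95 also passed the Wnt6 and Kitl minimum, and the Amh gate alone kept these out of the pregranulosa class. Against all 1451 pregranulosa cells the ratio was 79.1 [69.4–90.4], and 11.9 when no cell was left out for the gate of another class. In that setting the 95 Amh cells were counted as pregranulosa cells too, so that they stood on both sides of the ratio. Of 11512 genes compared, 8.5% were at least 2-fold higher and 14.3% at least 2-fold lower in the Amh cells. The Amh cells of E12.5 belong to the rule by which the members were chosen, so their ratios are descriptions. After thinning, 74.7% of the Amh cells held a Cst9 UMI and 1.68% of pregranulosa cells did, at median depths of 16256 and 12597.

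The other members moved by less. Cst8 was 398 [368–430] in the Amh cells and 157 in pregranulosa cells, a ratio of 2.54 [2.33–2.77], so that the Amh cells lay above the Gng13-high cells of that library (248). Cst3 was 847 [803–892] against 385, a ratio of 2.20 [2.08–2.33]. Cst12 went the other way, 6.13 [2.94–11.3] against 16.1, a ratio of 0.381 [0.181–0.710], from 10 UMIs.

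At E11.5, 104 cells of the gate had a Y-linked UMI and no Xist and 173 had Xist and no Y-linked UMI. Cst9 was 107 [89.6–128] in the former and 13.2 [8.90–18.8] in the latter, a ratio of 8.14 [5.43–12.55]. A Cst9 UMI was held by 31 cells of the former and 14 of the latter. Of the 297 Gng13-low cells of that library, 4 carried 39.6% of its Cst9 UMIs in the class, a spread that the interval leaves out. Cst8 was 43.6 against 24.6, a ratio of 1.77 [1.19–2.63], and Cst3 331 against 277, a ratio of 1.20 [1.05–1.36]. Of 7219 genes compared, 2.27% were at least 2-fold higher in the Y-positive cells. Sox9 differed as well, 224 against 52.8.

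For Cst12 only 1 UMI was found in the former and 0 in the latter. At E12.5 the 32 Y-positive cells of the pregranulosa gate, fewer than the 50 asked of a class, held Cst9 at 241 and Cst8 at 140.

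Amh appeared again at P5, in 174 pregranulosa-gate cells with at least 3 UMIs. There all 4 cystatins were lower in the Amh cells. At E12.5 Cst12 had been lower in the Amh cells as well, and Cst3, Cst8 and Cst9 higher. Cst12 was 95.4 [83.0–109] against 335 [326–345] in the 1602 other cells, a ratio of 0.285 [0.247–0.327]. Cst9 was 3.16 [1.27–6.52] against 18.47 [16.4–20.7], from 7 UMIs, a ratio of 0.171 [0.0683–0.357].

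Cst8 was 13.1 against 31.2, a ratio of 0.420 [0.279–0.611], and Cst3 467 against 571, a ratio of 0.818 [0.766–0.872]. At least 2-fold lower were 11.1% of the 11395 genes compared, and 3 of the 4 cystatins. Of the 174 Amh cells 169 were Gng13-low. Within the Gng13-low cells the ratio was 0.384 [0.332–0.443] for Cst12 and 0.225 [0.0718–0.542] for Cst9, while that of Cst8 was 0.924 [0.589–1.40] and not apart from 1.

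Within a class the cystatins also differed in how evenly cells carried them. The variance of the UMIs per cell over their mean (the Fano factor, near 1 for random sampling of equal cells) was taken in cells thinned to 2000 UMIs. For Cst12 it was 1.96 to 2.98 in the Gng13-high cells from E14.5 to P5, and 98.0 to 99.8% of the genes with a mean within a factor of 2 had a lower value. For Cst3 it was 0.978 to 1.17 in the Gng13-high cells of the 6 ovary libraries and for Cst8 1.07 to 1.68. Of the genes with a similar mean there, 18.35 to 77.8% had a lower value than Cst3 and 64.1 to 96.8% a lower value than Cst8. Cst12 was as uneven in the Gng13-low cells from E14.5 to P5, at 1.98 to 3.15, with 98.6 to 99.8% of such genes lower.

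**Figure D4:**
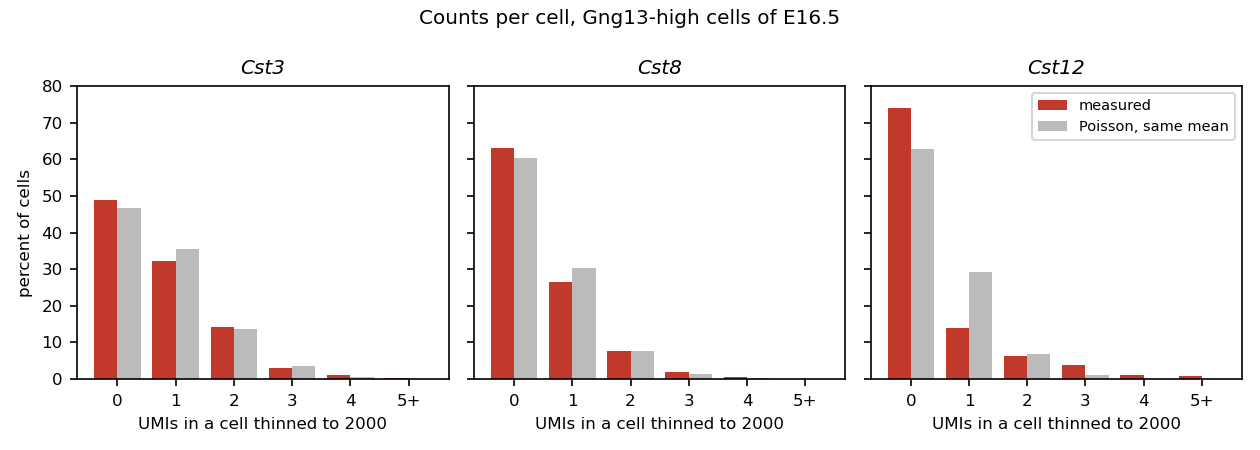
Share of the Gng13-high cells of E16.5 with 0 to 4 or at least 5 UMIs (5+) of Cst3, Cst8 and Cst12 after thinning to 2000 UMIs, beside the share of a Poisson distribution of the same mean. Cst12 has more cells at 0 and more at 3 and above than the Poisson shares, with a UMI in 26.1% of cells where 37.3% would hold one.

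The same pattern was seen at every age from E14.5. At E18.5 35.4% of Gng13-high cells held a Cst12 UMI where a Poisson distribution of the same mean gives 57.3%, and at P1 36.8% where it gives 58.9%. Cst8 came closer, with 36.8% and 39.5% at E16.5 and 34.3% and 41.9% at P1. Without thinning, 49.0% of the Gng13-high cells of E16.5 had no Cst12 UMI, while 13.3% had at least 10 and carried 57.8% of all its UMIs in the class. The highest single cell of P5 held 61.

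A wide spread between cells also means that the Poisson intervals of Cst12 are too narrow for cells as the unit. Cst9 was uneven in the classes that mixed sexes, with a Fano factor of 4.995 in the Gng13-low cells of E12.5 and 2.46 at E11.5. It was also uneven at P1 and P5, where no pregranulosa cell held a Y-linked UMI. There it was 1.76 and 1.74 in the Gng13-low cells and 1.70 and 1.89 in the Gng13-high cells. In these uneven classes the Poisson intervals of Cst9 are too narrow as well. Over cells of one class and library the thinned counts of Cst8 and Cst12 were correlated with r of at most 0.108 (863 cells, Gng13-low, P1), too weak in sparse counts to be a finding.

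The cluster as a whole was then read in chromosome order. Besides the 4 members it holds Cstl1, Cst11, 8030411F24Rik, Cst13 and 9230104L09Rik, all cystatin-like genes. They were at most 10.5 CPM in any Gng13 class with at least 50 cells, below Cst3 and Cst8 in each of these classes but not always below Cst9 and Cst12. In the Gng13-low cells 8030411F24Rik was 9.79 against 4.09 for Cst9 at E14.5 and 2.75 against 2.71 at E16.5, and at E11.5 it and Cst13 were both 1.07 against 0.536 for Cst12. Cstl1 had no UMI in any of those classes.

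**Figure D5:**
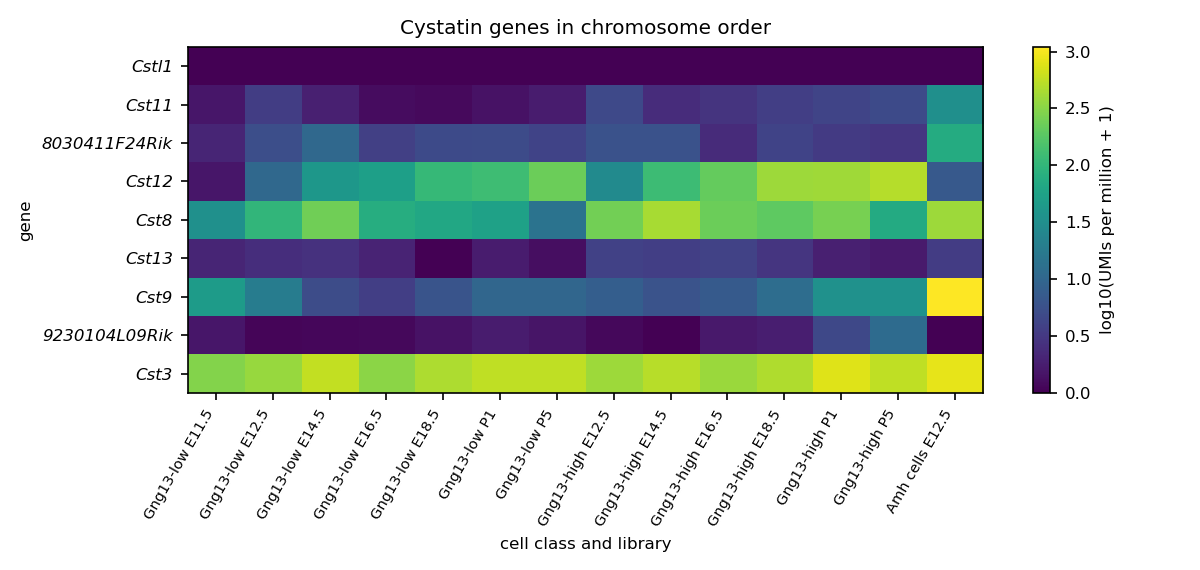
Level (log10 of CPM plus 1) of the 9 cystatin genes of the chromosome 2 cluster, in chromosome order from top to bottom, in the Gng13-low and Gng13-high pregranulosa cells by library and in the Amh cells of E12.5. The Amh cells differ from the other columns by high Cst9, 8030411F24Rik and Cst11, while Cst12, which lies between 8030411F24Rik and Cst8, is at 6.13 CPM, between the Gng13-low columns of E11.5 (0.536) and E12.5 (9.76).

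In the Amh cells of E12.5, Cst11 and 8030411F24Rik were high beside Cst9. Cst11 was 31.3 against 2.91 in Xist-positive pregranulosa cells, a ratio of 10.8 [7.17–16.1], and 8030411F24Rik 72.3 against 4.42, a ratio of 16.4 [12.2–22.1]. Cst12 is the next gene after 8030411F24Rik, 3423 bases away, and had a ratio of 0.372 [0.176–0.694]. Cst13, between Cst8 and Cst9, was 2.45 against 1.90, from 4 UMIs in the Amh cells, and did not differ beyond its interval (ratio 1.29 [0.333–3.62]).

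Between the Gng13 classes, Cst11 had an interval above 1 in the 4 libraries from E16.5 on, with 1.88 against 0.279 and a ratio of 6.75 [3.04–17.7] at E16.5. 8030411F24Rik went the other way at E14.5 and E16.5, with ratios of 0.490 [0.359–0.669] and 0.485 [0.312–0.742]. 9230104L09Rik, the neighbour of Cst3, was 10.5 against 0.472 at P5, a ratio of 22.2 [9.47–63.5] from 47 and 6 UMIs.

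Besides these 9 genes, 18 cystatin superfamily genes of the list were in the tables and 15 had a UMI in pregranulosa cells. Of these, 4 reached 20 CPM in Gng13-low cells of any library. Cstb, the cytosolic cystatin B, stood at 107 to 232 in the Gng13-low cells and 80.2 to 152 in stroma. It was the only one of them that could be compared in all 6 ovary libraries, with a median ratio of Gng13-high to Gng13-low cells of 1.05 where all compared genes had 0.952. Stfa1, BC100530 and Gm5483, stefins of neutrophils, reached 56.0, 43.2 and 24.2 in the Gng13-low cells, and 48.2, 34.8 and 19.0 in stroma. Their level in immune cells was up to 25278, 23932 and 16204.

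The list used for proteases that inhibitory cystatins bind held 11 genes, which were cysteine cathepsins and legumain (Lgmn). All 11 had UMIs in pregranulosa cells and 7 reached 20 CPM in the Gng13-low cells, namely Ctsb, Ctsf, Ctsh, Ctsl, Ctso, Ctsz and Lgmn. Of the 8 that could be compared in all 6 libraries, 0 had an interval above 1 in all 6 and 0 below 1 in all 6, against 2.2% and 3.86% of all genes, and the median of their ratios was 0.963. With 8 genes and these shares, counts of 0 say nothing particular about the list.

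Ctsl, cathepsin L, had a lower ratio of Gng13-high to Gng13-low cells in each later library. In Gng13-low cells it was 152, 254, 278, 275, 709 and 830 from E12.5 to P5, and in Gng13-high cells 149, 243, 248, 196, 354 and 206. Its ratio fell from 0.983 [0.906–1.07] at E12.5 to 0.499 [0.472–0.527] at P1 and 0.249 [0.232–0.266] at P5. Ctsb stayed close to 1 in all 6, between 0.856 and 1.10, and Ctsz between 0.748 and 1.16. Ctsc and Ctsk were under the level set for naming and are given here after their values were seen. Ctsc was higher in Gng13-high cells in 5 of 6 libraries, with 5.09 [3.07–8.90] at E18.5. Ctsk could be compared from E14.5 on and had ratios of 2.62, 6.10, 4.37 and 2.93 up to P1, with intervals above 1, and 0.872 [0.465–1.55] at P5. Of the 4 other cathepsins, Ctsa and Ctsd were named by level, with Ctsd at 62.2 to 166 in the Gng13-low cells.

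Last, the genes whose levels were most like each member were taken over 47 class-by-library points, by Pearson's r of log2 of CPM plus 10, among 13657 genes and without the gate genes. The points share libraries, depth and gates, so r is a description. Cst8 was most like Tmem114 (0.936), Fdxr (0.928), Aldh1a7 (0.923), A230005M16Rik (0.923) and Acsbg1 (0.922). Fdxr, ferredoxin reductase, feeds electrons to the mitochondrial enzymes of steroid synthesis. It was at 272 in the Amh cells of E12.5 and at 109 and 70.7 in the Gng13-high and Gng13-low cells of E14.5.

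Cst12 was most like Tgfbr3l (0.94), Pde8b (0.938), Wfdc1 (0.935), Dtx1 (0.933) and Pak6 (0.929). Tgfbr3l, a co-receptor related to betaglycan, was at 46.0 and 16.4 in the Gng13-high and Gng13-low cells of E14.5 and at 5.52 in the Amh cells. Cst9 was most like Rgn (0.904), Cela3b (0.888), Sel1l3 (0.870), its cluster neighbour 8030411F24Rik (0.869) and Adhfe1 (0.847), a likeness that the single Amh point weighs on, with Rgn at 39.9 there.

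Cst3 was most like Arpc2 (0.910), Leprotl1 (0.909), Rnf130 (0.905), Psap (0.905) and Vps4b (0.899), genes of the actin network, of membranes and of lysosomes that many cells use. Among the members, Cst8 and Cst12 were most alike (0.728), then Cst8 and Cst9 (0.60), while Cst9 and Cst12 (0.287) were no more alike than Cst3 and the others (0.275 to 0.367).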

How the data were processed

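The authors made the deposited counts, UMIs per gene and cell, with Cell Ranger 3.1.0 and the 10x mouse reference mm10, from cells dissociated with trypsin for 20 to 80 min. No further normalization had been applied. Cells with at least 200 genes were kept. Gates used raw UMIs (3 or more), doublets were not called, and cells that carried the gate of another class (germ, immune, endothelial or red blood cells) were left out. Levels were summed UMIs of a class scaled to 1000000 (CPM) with exact Poisson 95% intervals, shares had exact Clopper-Pearson intervals, and ratios had exact intervals conditional on the summed count. For a count of 0 the limits given were instead 3 counts over the cells or UMIs of the class. Such limits are lower than the exact upper ends, as with 1.21% against 1.48% for Cst8 in red blood cells of E11.5. Intervals and limits cover counting error only. Gated classes under 50 cells entered no ratio given here, but the levels of some are set beside other classes with their cell counts. With 1 library per age no test was made.

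Genes with at least 50 UMIs in both classes together were counted over all genes at 2-fold or by interval. Thinning to 2000 UMIs used seed 1. Python 3.11.15, numpy 2.4.6 and scipy 1.17.1 were used, and the statistics over all genes were tested on simulated data. Positions came from GENCODE vM21 and promoter windows from RefSeq, which matched all 4 members. Of the 52542 barcodes, 962 sequences occurred in more than 1 library. The rule for named genes was the members everywhere, list genes with at least 20 CPM in the Gng13-low cells of any library, and the 5 genes most like each member among those with at least 500 UMIs. The members, lists and motifs were chosen with earlier results of these data known.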

Additional observations from a re-analysis of the deposited data

Results flagged for a closer look

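The ratio of Gng13-high to Gng13-low cells took opposite directions at different ages for Cst9, with 0.406 at E12.5 and 3.84 at P5, and for Cst3, with 0.893 at E14.5 and 1.38 at P1. In each pair the intervals lay on opposite sides of 1. The Cst9 value of E12.5 did not stay apart from 1 among Xist-positive Gng13-low cells, at 0.803 [0.549–1.16], and was 2.10 with cells split by Lgr5 and Foxl2. Each age is 1 library and the difference between ages was not tested.

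Cells left in no class were used in no comparison. They were cells without any gate and cells with the gates of several classes. Among the latter, 179 cells of E14.5 and 33 of P5 passed the Wnt6 and Kitl minimum and carried a gate of another class. In some libraries the cystatins in the cells left in no class were above both stroma and red blood cells. Cst8 stood at 117 [112–123] CPM in the 2650 such cells of E14.5, Cst12 at 193 [183–203] and Cst9 at 11.6 [9.26–14.3] in the 1292 of P5, and Cst3 at 381 [371–391] in those of E14.5. In the cells left in no class the medians were 4078 UMIs at E14.5 and 5359 at P5, below those of the pregranulosa cells, 6385 and 8599.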

How the results depend on the processing

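Age, library and dissociation time cannot be told apart, counting intervals leave out the spread between animals, and those of Cst12 are too narrow for its spread between cells. The same holds for Cst9 in the classes where its counts were uneven. No paired analysis was possible because every age has 1 library and the labels give no replicate numbers. Leaving out cells with an Upk3b or Krt19 UMI, splitting by Lgr5 and Foxl2, counting the direction of the Gng13 split and leaving out the E12.5 library were chosen after seeing the data.

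The number of libraries with Gng13-low above Gng13-high cells went from 1 to 2 for Cst3 with no cell left out for other gates and by Lgr5 and Foxl2, from 0 to 1 for Cst8 by Lgr5 and Foxl2, and from 1 to 0 for Cst9 without cells with Y-linked UMIs, by Lgr5 and Foxl2 and without the E12.5 library. The ratio of Amh cells to pregranulosa cells at E12.5 became 2.042 for Cst3 with no cell left out. For Cst8 it became 2.325 with a Wnt6 and Kitl minimum of 5 UMIs and 2.270 without Upk3b or Krt19 cells. For Cst9 it became 11.92 with no cell left out, 53.63 with gates on UMIs per 10000, 57.59 as a mean over cells and 69.25 without Upk3b or Krt19 cells. With no cell left out, the Amh cells that pass the Wnt6 and Kitl minimum were counted as pregranulosa cells too and stood on both sides of this ratio. The ratio of Y-positive to Xist-positive cells at E11.5 was 1.430 for Cst3 with the minimum of 5, and Cst12 could give none. At E12.5 the point value of the Gng13-high to Gng13-low ratio reversed for Cst3 to 0.9382 (no cell left out), 0.9881 (per 10000), 0.9877 (without Upk3b or Krt19 cells) and 0.8937 (Lgr5 and Foxl2). By Lgr5 and Foxl2 it also reversed to 0.8738 for Cst8 and 2.097 for Cst9. Without Upk3b or Krt19 cells the Cst3 levels overlapped, at 406.5 [389.5–424.0] CPM in Gng13-high and 411.5 [397.6–425.9] in Gng13-low cells. The cause was not tested, beyond the cells each alternative adds or removes. Of 1156 values of single levels and ratios, 847 moved by less than their counting interval, 303 by more, and 6 reversed, those just given.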
